A study of Mus musculus with 5 samples.

Results

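Genes that mark macrophages and the first step of the classical complement pathway were read in RNA-seq of mouse tibialis anterior (TA) muscle, as a read of immune cell content. The 10 members, out of 17015 genes in the deposited table, were taken by name: Cd68, Adgre1, Csf1r, Mrc1, Cd163, Lyz2, C1qa, C1qb, C1qc and Itgam. All muscles came from 8-week-old sedentary male mice. The 3 WT control libraries came from Cre-negative littermates, and the 2 libraries labelled skmNrip1-/- from a cross of floxed Nrip1 mice (Nrip1 fl/fl, C57BL/6J) with C57BL/6JN mice that express Cre from the myogenin promoter. Myogenin drives Cre in the skeletal muscle lineage, so by design the deletion is directed at muscle cells and not at macrophages. These data do not show in which cells it took place. Nrip1 encodes RIP140, a coregulator of nuclear receptors. Whether each library came from a separate mouse is not stated in the labels, and the p-values measure the spread between these libraries.

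Macrophages reside in the connective tissue between muscle fibres, where they clear debris and take part in repair. They depend on the receptor encoded by Csf1r and its ligands CSF1 and IL-34. C1q is the recognition molecule of the classical complement pathway. It is built from A, B and C chains in equal number, encoded by C1qa, C1qb and C1qc, and in most tissues macrophages are a main source of it. C1q bound to antibody complexes or dying cells activates the proteases C1r and C1s and, through C4 and C2, the central component C3.

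The targeted gene was examined first, and values of libraries are given throughout in the order of their replicate numbers. The FPKM of Nrip1 (fragments per kilobase of transcript, scaled between libraries) was 4.64, 7.69 and 6.55 in WT control TA, against 25.3 and 22.5 in TA labelled skmNrip1-/-. This rise runs against the label of a knockout (log2 fold change 1.94, adjusted p = 0.0261 from limma), so each library is called by its label alone. The paper describes the line as RIP140-deficient, from Nrip1 RNA and RIP140 protein measured in gastrocnemius and heart. Its loxP sites flank the exon that holds the start and stop codons, and FPKM per gene does not separate that exon from the others. Why the FPKM rose was not tested. Genes that define the tissue as fast muscle were abundant, with Acta1, skeletal actin, between 14369 and 21925 FPKM. The FPKM sums were 1144714, 1031290 and 969144 in WT control TA, against 1288038 and 1286254 in TA labelled skmNrip1-/-. Both of the latter lay above all WT control sums. Low values of genes with 1 transcript came in whole steps, which give the scaling from fragments to FPKM. Relative to WT control replicate 1, this scaling was between 0.814 and 1.1 in the other 4 libraries. It equals the relative sequencing depth only if the FPKM were scaled by depth alone.

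The 3 C1q genes are neighbours on the minus strand of chromosome 4 (GRCm38, GENCODE M21). C1qb lies at 136880129 to 136886187, C1qc at 136889804 to 136893065 and C1qa at 136895917 to 136898803, and no other annotated gene lies wholly within the 18675 bases from the first to the last. PU.1, the transcription factor encoded by Spi1, is required for macrophage development and binds purine-rich sites with the core GAGGAA. RefSeq promoters on GRCm38.p6, from 250 bases before to 50 bases after the start, were searched for 7 of the members. C1qa, Adgre1 and Csf1r were left out of this search. The core or its reverse complement TTCCTC was present in 5 of these 7, and in 28.3% of all 32851 promoters of that length. The match nearest to the start among those with 12 bases on each side before the start is shown for these 5, as examples of the letters searched, with the core in capitals and each sequence 5′ to 3′ on the strand of the gene. In C1qb the core begins 30 bases before the start (chr4:136886213-136886242) and in C1qc 193 bases before it (chr4:136893090-136893119). In Mrc1 it begins at 35 bases (chr2:14229367-14229396), in Itgam at 84 bases (chr7:128062544-128062573) and in Cd68 at 225 bases (chr11:69666378-69666407).
C1qb: gcagcaggatggGAGGAAcagaggggtgat
C1qc: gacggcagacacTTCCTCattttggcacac
Mrc1: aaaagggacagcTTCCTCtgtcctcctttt
Itgam: tgttttctcccgGAGGAAggctacagaggg
Cd68: tttcttaccaatGAGGAAagggcttcccat
A match is a description of the letters only, and no match was found in the windows of Cd163 and Lyz2.

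None of the macrophage and complement genes passed the test for a difference between the labelled genotypes. Limma was run on log2(FPKM + 0.1) over 12148 genes, those whose mean FPKM reached 0.5. The call required a fold change of 1.2 or more together with an adjusted p that did not exceed 0.05. For genes of low FPKM, the added 0.1 makes the fold change too small. Of the 10 members, 8 passed the FPKM minimum, and 0 of these 8 were called, against a background of 0.453% of all genes tested. That background was 0.37% for genes called higher and 0.0823% for genes called lower, or 45 and 10 genes, and after rescaling to TPM the split was 30 and 63 genes. With an unadjusted p in place of the adjusted one, 0 of the 8 passed, against 11.7% of all genes tested. The groups overlapped in all 8, whereas 30.2% of all genes tested had groups that did not overlap. The median log2 fold change of the 8 genes was -0.01, with 4 above and 4 below 0, and the median of all genes tested was -0.00. In bulk muscle, a different number of macrophages and a different RNA content per macrophage cannot be told apart.

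The C1q chain genes were among the more abundant members. C1qa (ENSMUSG00000036887) encodes the A chain. Its FPKM was 4.0, 5.97 and 7.82 in WT control TA, against 5.63 and 3.64 in TA labelled skmNrip1-/-. The second of these lay below all WT control libraries and the other lay among them, so the groups overlapped. The log2 fold change was -0.33 (standard error 0.31, 95% confidence interval -1.06 to 0.40, adjusted p = 0.747 from limma), the lowest among the members tested.

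C1qb (ENSMUSG00000036905) encodes the B chain. Its FPKM was 2.36, 3.76 and 5.63 in the WT control libraries, in the same order of replicates, and 4.78 and 3.41 in those labelled skmNrip1-/-. Both of the latter lay within the WT control range, and the log2 fold change was 0.13 (95% confidence interval -0.71 to 0.96, adjusted p = 0.924 from limma). C1qc (ENSMUSG00000036896), which encodes the C chain, had an FPKM of 2.88, 3.77 and 6.27 in WT control TA, against 5.20 and 2.93 in TA labelled skmNrip1-/-. These too lay within the WT control range, and the log2 fold change was -0.06 (95% confidence interval -0.93 to 0.81, adjusted p = 0.971 from limma).

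Lyz2 (ENSMUSG00000069516, chromosome 10, 117277331 to 117282321) encodes lysozyme of macrophages and granulocytes and had the highest level of the members. Its FPKM was 10.5, 13.3 and 17.2 in WT control TA, against 15.8 and 11.9 in TA labelled skmNrip1-/-. Both of the latter lay between the lowest and highest WT control libraries. The log2 fold change was 0.04 (standard error 0.23, 95% confidence interval -0.50 to 0.58, adjusted p = 0.972 from limma), the narrowest interval of the members tested.

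Csf1r (ENSMUSG00000024621) encodes the CSF1 receptor. Its FPKM was 1.07, 2.03 and 3.12 in the WT control libraries and 1.97 and 2.0 in those labelled skmNrip1-/-, the latter close together near the middle of the WT control range. The log2 fold change was 0.06 (95% confidence interval -0.88 to 1.0, adjusted p = 0.975 from limma). Cd68 (ENSMUSG00000018774, chromosome 11, 69664213 to 69666153), a glycoprotein of macrophage lysosomes, had an FPKM of 0.826, 1.03 and 1.95 in WT control TA, against 0.877 and 1.45 in TA labelled skmNrip1-/-. Its libraries were also interleaved, with a log2 fold change of -0.07 (95% confidence interval -0.99 to 0.85, adjusted p = 0.969 from limma).

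Mrc1 and Cd163 encode scavenging receptors of resident macrophages, the mannose receptor CD206 and the receptor for haptoglobin-hemoglobin complexes. The FPKM of Mrc1 (ENSMUSG00000026712, chromosome 2, 14229392 to 14332057) was 0.886, 1.57 and 1.77 in WT control TA, against 1.76 and 1.86 in TA labelled skmNrip1-/-. Its log2 fold change of 0.39 (standard error 0.29, 95% confidence interval -0.31 to 1.09, adjusted p = 0.675 from limma) was the highest among the members tested. WT control replicate 1 stood apart from the other 4 libraries, and without it the log2 fold change was 0.11. The FPKM of Cd163 (ENSMUSG00000008845, chromosome 6, 124304656 to 124330527) was 1.35, 1.96 and 3.24 in WT control TA, against 2.38 and 1.13 in TA labelled skmNrip1-/-. One of the latter lay within and the other below the WT control range, with a log2 fold change of -0.30 (95% confidence interval -1.31 to 0.71, adjusted p = 0.843 from limma). The ratio of Cd163 to Mrc1 within a library spanned 1.25 to 1.84 in WT control TA, against 1.36 and 0.609 in TA labelled skmNrip1-/-, so its groups overlapped.

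Adgre1 and Itgam did not reach the FPKM minimum. Adgre1 (ENSMUSG00000004730, chromosome 17, 57358691 to 57483527) encodes the macrophage surface protein F4/80. Its mean of 0.497 FPKM was just under the minimum, and its FPKM was 0.449, 0.496 and 0.475 in WT control TA, against 0.718 and 0.349 in TA labelled skmNrip1-/-. The latter libraries thus lay one above and one below all WT control libraries. Itgam (ENSMUSG00000030786, chromosome 7, 128062640 to 128118491), the integrin CD11b of macrophages, monocytes and granulocytes and a receptor for fragments of C3, had an FPKM of 0.196, 0.190 and 0.248 in WT control TA, against 0.320 and 0.200 in TA labelled skmNrip1-/-. In a fit without the minimum, over all 17015 genes, the log2 fold changes were 0.08 for Adgre1 (95% confidence interval -0.65 to 0.81, adjusted p = 0.957 from limma) and 0.19 for Itgam (95% confidence interval -0.40 to 0.79, adjusted p = 0.855 from limma).

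**Figure D1:**
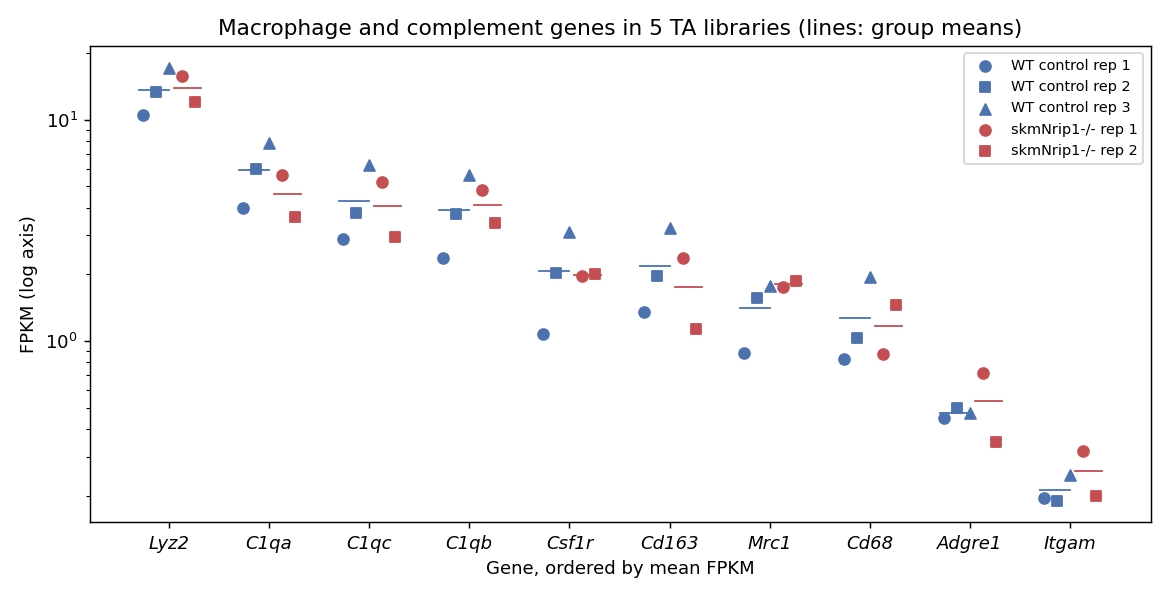
FPKM of the 10 macrophage and complement genes (log axis) in each of the 5 TA libraries, with genes ordered by mean FPKM and horizontal lines at the group means. WT control libraries are blue and libraries labelled skmNrip1-/- red, and the 2 colours overlap for each gene, from Lyz2 at 10.5 to 17.2 FPKM down to Itgam at 0.190 to 0.320 FPKM.

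In the order of mean FPKM over the 5 libraries, Lyz2 (13.7) was followed by C1qa (5.41), C1qc (4.21), C1qb (3.99), Csf1r (2.04), Cd163 (2.01), Mrc1 (1.57), Cd68 (1.23), Adgre1 (0.497) and Itgam (0.231). FPKM is a level per length of transcript, which allows this comparison between genes. The libraries of Lyz2 lay wholly above those of C1qa. The neighbours from C1qa to Cd68 had overlapping ranges over the libraries. Within libraries, C1qa was above C1qc and C1qb above Csf1r in all 5, and these differences were not tested. The range of Adgre1 lay below that of Cd68, and the range of Itgam below that of Adgre1.

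The intervals show what the comparison could and could not see. Over the 8 genes tested, the 95% confidence intervals of the fold change reached from 0.404, for Cd163, to 2.13, for Mrc1. A change inside the interval of a gene could not be told from none with these libraries, and the missing calls do not show that the levels were equal. With each library left out in turn, the sign of the log2 fold change turned in 6 of the 8 genes. Without WT control replicate 1 the log2 fold changes of Csf1r, C1qb and Lyz2 were -0.33, -0.18 and -0.14. Without WT control replicate 3 those of C1qc, Cd68 and Cd163 were 0.24, 0.26 and 0.017. C1qa stayed below 0 and Mrc1 above 0 under all 14 alternatives tried, and neither was called under any of them.

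**Figure D2:**
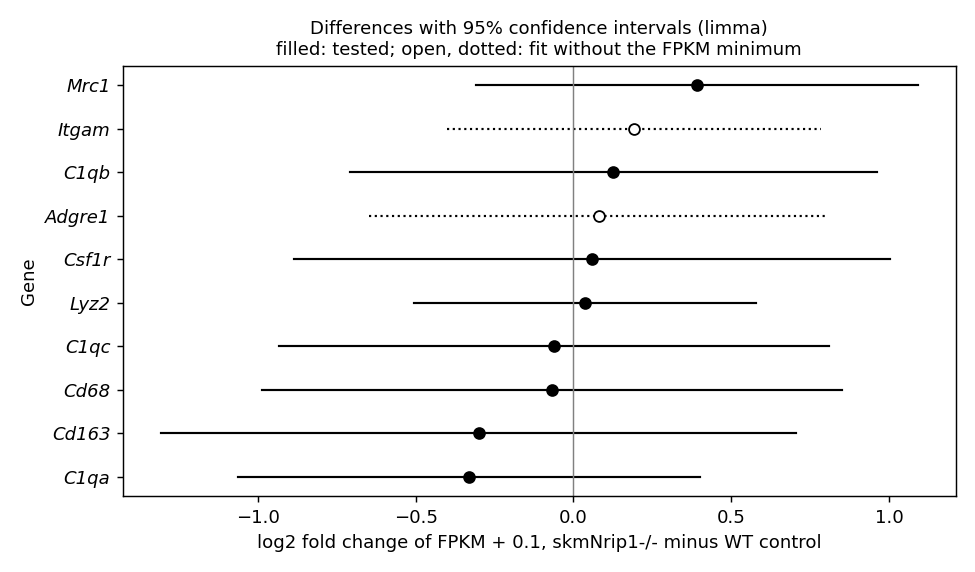
Log2 fold change of FPKM + 0.1 (x axis, skmNrip1-/- minus WT control) of the 10 genes (y axis), with bars for the 95% confidence interval from limma. Filled points are the 8 genes tested and open points with dotted bars are Adgre1 and Itgam in the fit without the FPKM minimum, and each interval spans 0.

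The WT control libraries differed among themselves. In all 8 tested members, WT control replicate 1 had the lowest and WT control replicate 3 the highest FPKM of that group, an order found in 15.5% of all genes tested. The highest WT control library exceeded the lowest by a median of 2.17-fold in the members and 1.26-fold over all genes tested, on the scale of FPKM + 0.1. The largest such range was that of Csf1r at 2.74-fold and the smallest that of Lyz2 at 1.64-fold. For 5 of the 8, namely C1qb, C1qc, Cd163, Cd68 and Csf1r, it was above 2.07-fold, the 95th percentile of the genes tested. Between the libraries labelled skmNrip1-/-, the median range of the members was 1.46-fold against 1.11-fold over all genes tested, with replicate 1 above replicate 2 in 5 of the 8.

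Counting error could be estimated for 3 of the more abundant members. Lyz2, C1qa and C1qb have 1 annotated transcript each, so their FPKM could be turned into approximate fragment numbers from the value of 1 fragment. C1qb then rested on about 89.1 to 213.3 fragments per library, C1qa on about 124.8 to 277.5 and Lyz2 on about 513.5 to 845.9. A count of that size varies by 10.6% or less from counting alone in C1qb, 8.95% or less in C1qa and 4.41% or less in Lyz2, and the FPKM of the WT control libraries spanned 2.39-fold, 1.96-fold and 1.64-fold, respectively. For the other members, at lower FPKM or with several transcripts, counting error was not estimated.

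Summed over the 10 members, the FPKM was 24.5, 34.1 and 47.7 in WT control TA, against 39.4 and 28.9 in TA labelled skmNrip1-/-. Both sums labelled skmNrip1-/- lay inside the WT control range. WT control replicate 3 was the highest of the 5 libraries in 7 of the 10 genes and WT control replicate 1 the lowest in 6.

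The C1q chains were also set against each other within each library. The ratio of C1qa to C1qb was 1.69, 1.59 and 1.39 in WT control TA, against 1.18 and 1.07 in TA labelled skmNrip1-/-, and these groups did not overlap. The ratio of C1qa to C1qc was 1.39, 1.58 and 1.25 in WT control TA, against 1.08 and 1.24 in TA labelled skmNrip1-/-, which did not overlap by a small margin. The ratio of C1qb to C1qc was 0.821, 0.998 and 0.899 in WT control TA, against 0.920 and 1.16 in TA labelled skmNrip1-/-, and here the groups overlapped. These ratios were not tested, and their pattern was seen in the values. Both ratios without overlap contain C1qa, so they are not separate observations. How often ratios of other gene pairs do not overlap between the groups was not computed.

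**Figure D3:**
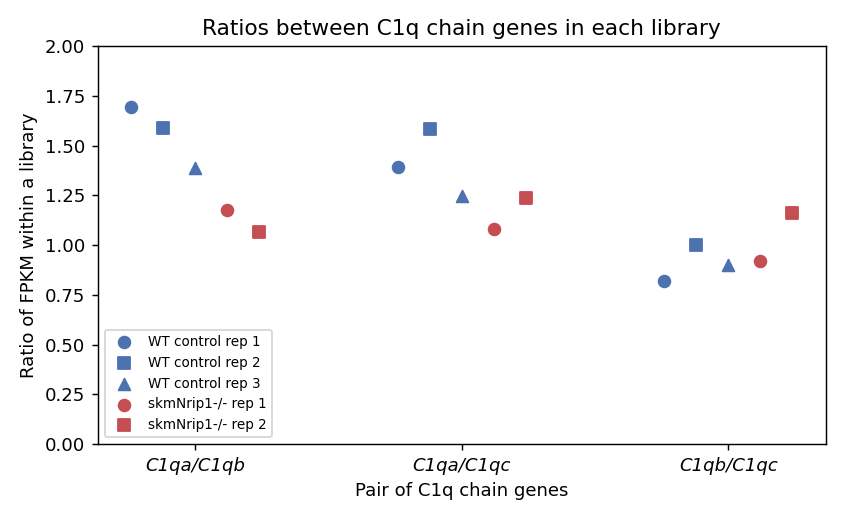
Ratio of FPKM within a library (y axis) for each pair of C1q chain genes (x axis), with 1 point per library, WT control in blue and skmNrip1-/- in red. C1qa to C1qb runs from 1.39 to 1.69 in WT control TA and is 1.18 and 1.07 in the libraries labelled skmNrip1-/-, whereas C1qb to C1qc overlaps between the groups.

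Other genes of macrophages and monocytes were read from a list of 30, of which 17 were tested. Of these, 0 were called in limma, against 0.453% of all genes tested. Of the 17, 6 were above and 11 below 0, and their median log2 fold change was -0.15. Laptm5, a lysosomal protein of blood cells, had an FPKM of 1.52, 2.12 and 2.83 in WT control TA, against 1.22 and 1.14 in TA labelled skmNrip1-/- (log2 fold change -0.78, adjusted p = 0.325 from limma). The unadjusted p of Laptm5 was 0.0223 (limma), and its groups did not overlap, as in 30.2% of all genes tested. The resident macrophage genes Folr2, Lyve1, Clec10a, Pf4 and F13a1 were higher in replicate 1 than in replicate 2 labelled skmNrip1-/-, with Folr2 at 2.84 and 0.616 FPKM and Clec10a at 1.47 and 0.214 FPKM. Stab1, Mertk and Mrc1, also genes of resident macrophages, were not higher in replicate 1, with Stab1 at 3.17 and 3.26 FPKM and Mrc1 at 1.76 and 1.86 FPKM.

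Among 20 tested genes of a list of 25 other complement components, receptors and regulators, 0 were called in limma, against 0.453% of all genes tested. Of the 20, 12 were above and 8 below 0, and the median log2 fold change was 0.03. The proteases of the C1 complex, C1ra and C1s1, had log2 fold changes of 0.06 and 0.07. C3, the central component, had an FPKM of 6.53, 9.35 and 14.8 in WT control TA, against 11.7 and 7.27 in TA labelled skmNrip1-/-, which put the 5 libraries in the same order as C1qb. C4b and the inhibitor clusterin, Clu, passed with an unadjusted p (limma) in place of the adjusted one. These were 2 of the 20, against 11.7% of all genes tested. The FPKM of C4b, which is cleaved by C1s, was 1.95, 2.05 and 3.11 in WT control TA, against 1.66 and 1.34 in TA labelled skmNrip1-/- (log2 fold change -0.61, adjusted p = 0.391 from limma). That of Clu was 23.9, 19.0 and 23.0 in WT control TA, against 15.7 and 13.8 in TA labelled skmNrip1-/- (log2 fold change -0.57, adjusted p = 0.203 from limma). The highest change of this list was 0.40, for Masp1, a protease of the lectin pathway, and the most abundant gene was the regulator Cr1l (log2 fold change 0.16).

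Neither ligand of the CSF1 receptor passed the test. Csf1 had an FPKM of 1.84, 1.89 and 2.31 in WT control TA, against 2.05 and 2.14 in TA labelled skmNrip1-/-, and Il34 of 4.90, 3.81 and 4.09, against 2.61 and 4.56. With chemokines that attract macrophages, 8 genes of this list were tested and 0 were called in limma, against 0.453% of all genes tested. At an unadjusted p of 0.05 and the same fold change, 0 of the 8 passed, against 11.7% of all genes tested. The log2 fold changes ran from -0.39 for Ccl9 to 0.14 for the eosinophil chemokine Ccl11, and the most abundant gene, Mif, had -0.06.

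Of 14 genes of inflammatory or alternative activation, 7 were tested and 0 were called in limma, against 0.453% of all genes tested. At an unadjusted p of 0.05 and the same fold change, 0 of the 7 passed, against 11.7% of all genes tested. Retnla, a product of alternatively activated macrophages and of fat, had a listed FPKM of 7.74, 6.71 and 0 in WT control TA and of 0 in both libraries labelled skmNrip1-/-. Spp1, osteopontin, the most abundant gene of this list, was at 5.77, 10.2 and 9.36 FPKM in WT control TA, against 2.30 and 21.1 in TA labelled skmNrip1-/-. The highest log2 fold change of this list was 0.31, for arginase 1, Arg1. For antigen presentation, 6 genes of MHC class II and dendritic cells were tested and 0 were called, against 0.453% of all genes tested. Cd74, the invariant chain, was the most abundant, with 15.9, 20.6 and 21.2 FPKM in WT control TA, against 18.0 and 16.1 in TA labelled skmNrip1-/-. H2-DMa, which helps to load peptide, had an FPKM of 2.01, 1.61 and 1.99 in WT control TA, against 1.04 and 0.949 in TA labelled skmNrip1-/- (log2 fold change -0.84, unadjusted p = 0.00295, adjusted p = 0.167 from limma), and the highest change of that list was 0.08, for H2-Aa.

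None of the 3 neutrophil markers and the 5 T and NK cell markers in the table reached the FPKM minimum, and the summed FPKM of each of these lists was at most 1.1 in any library. Among B cell markers, Ighm, the heavy chain of IgM, was the one called gene of all the lists read here. The background was 0.453% of all genes tested, and the adjusted p of Ighm lay close to the threshold of 0.05. Whether Ighm stayed called under the alternatives is not reported here. Its FPKM fell from 22.1, 12.2 and 15.2 in WT control TA to 2.98 and 4.57 in TA labelled skmNrip1-/- (log2 fold change -2.09, adjusted p = 0.0475 from limma). The B cell genes Cd79a and Ms4a1 were at or below 0.27 FPKM in all 5 libraries, and Cd79b reached 0.454 FPKM in skmNrip1-/- replicate 2. The light chain gene Igkc, at 0.760 to 2.0 FPKM, had overlapping groups (log2 fold change -0.38). The 5 red blood cell genes had log2 fold changes above 0, with a median of 0.51, and 0 were called, against 0.453% of all genes tested. With an unadjusted p in place of the adjusted one (limma), 3 of the 5 passed, against 11.7% of all genes tested. In 4 of the 5 the groups did not overlap, against 30.2% of all genes tested. All 5 mark 1 cell type, so they are not separate observations. The most abundant red blood cell gene, the globin gene Hba-a2, was at 301, 253 and 208 FPKM in WT control TA, against 394 and 330 in TA labelled skmNrip1-/-.

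The markers of other cell types were compared with the members library by library, by the median over each list of log2(FPKM + 0.1) centred on each gene's mean. For the 8 members this median was -0.46, 0.01 and 0.60 in WT control TA, against 0.21 and -0.17 in TA labelled skmNrip1-/-. Mast cell markers put the 5 libraries in the same order, with -1.01, -0.03 and 0.97 in WT control TA, against 0.54 and -0.33 in TA labelled skmNrip1-/-. Fibroblast markers had -0.39, 0.01 and 0.23 in WT control TA, against -0.05 and 0.16 in TA labelled skmNrip1-/-. Thus WT control replicate 1 was lowest and replicate 3 highest within WT control TA for all 3 of these lists. Endothelial markers stayed between -0.15 and 0.10 and markers of smooth muscle and pericytes between -0.06 and 0.06. Fast muscle fibre genes had their highest median, 0.40, in WT control replicate 1, where the members were lowest. The part of these cell types in the differences of the members was not tested.

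**Figure D4:**
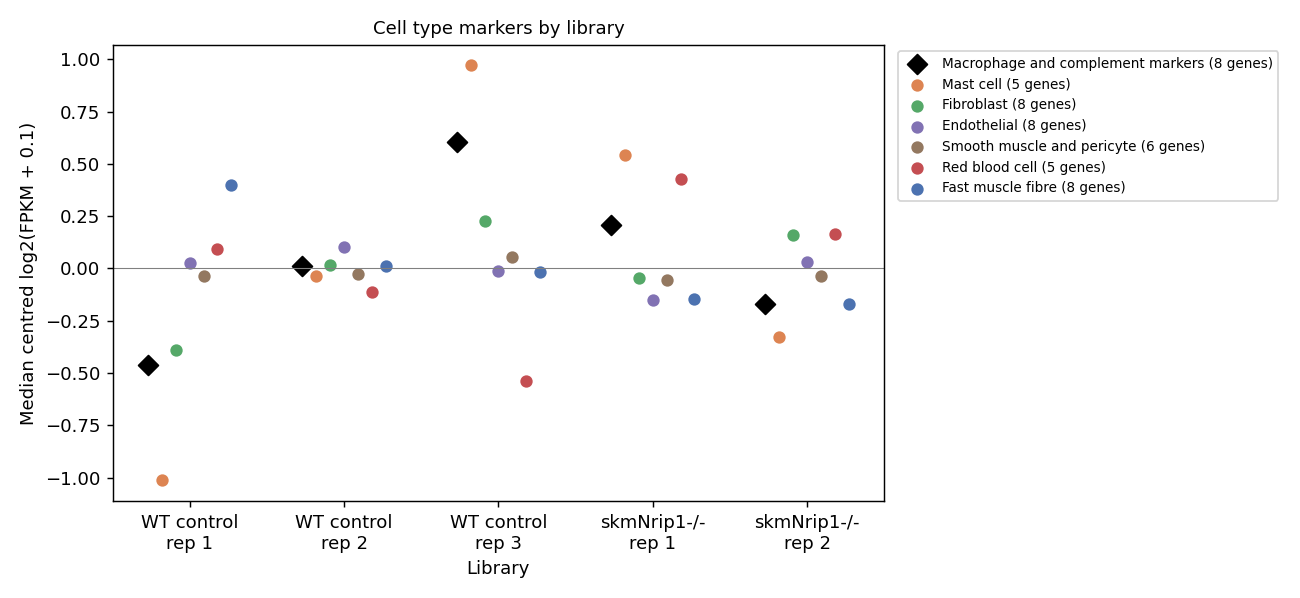
Median over the tested genes of each marker list of log2(FPKM + 0.1), centred on each gene's mean over the 5 libraries (y axis), by library (x axis). Macrophage and complement markers (black diamonds), mast cell and fibroblast markers are lowest in WT control replicate 1 and, within WT control TA, highest in replicate 3, whereas endothelial markers stay between -0.15 and 0.10.

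Gene by gene, the same order within WT control TA, replicate 1 lowest and replicate 3 highest, was found in 5 of 5 tested mast cell markers and 7 of 8 fibroblast markers. It was found in 7 of 17 tested genes of the list of other macrophage genes, 0 of 8 endothelial markers and 0 of 8 fast muscle fibre genes. The centred median of the other macrophage genes was -0.18, -0.05 and 0.51 in WT control TA, against 0.16 and -0.43 in TA labelled skmNrip1-/-, so the lowest library there was not WT control replicate 1 but skmNrip1-/- replicate 2. The mast cell proteases Mcpt4 and Cma1 were at 0.665 and 0.374 FPKM in WT control replicate 1 and at 2.55 and 1.66 FPKM in replicate 3. The tryptase Tpsb2 was at 0.682 FPKM in the former and 2.27 FPKM in the latter. No gene of the mast cell, fibroblast, endothelial, smooth muscle, satellite cell, adipocyte or Schwann cell lists was called in limma, against 0.453% of all genes tested. Over these lists, the highest log2 fold change was 1.14, for Chrdl2 of the satellite cell list, whose groups did not overlap (unadjusted p = 0.00915, adjusted p = 0.249 from limma).

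The 5 genes outside the members with the profile nearest to the members' mean, by the root mean square of the log2 difference over the 5 libraries, were Gsn (0.043), Scfd2 (0.055), Atp8b2 (0.064), Gm6505 (0.076) and Csk (0.084). The members tested were themselves 0.098, for C1qb, to 0.329, for Cd68, away from their own mean. The 5 genes were picked as the closest of all other genes tested, so their short distances follow from the selection. Gsn, the actin-severing protein gelsolin and one of the fibroblast markers here, had an FPKM of 96.3, 143 and 191 in WT control TA, against 153 and 122 in TA labelled skmNrip1-/-. The likeness rests on 5 libraries that share their depth and composition, and it was not tested.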

How the data were processed

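TA muscle RNA was sequenced in 5 libraries, grouped by their labels, with each column matched to 1 library. Per the study's methods and the submitters' processing notes, the authors ran Salmon 1.10.2 with mm10 and used tximport to reach gene level. The deposited values are FPKM. How the FPKM were computed and the annotation release are not given in the sources used here. Relative to the geometric mean per gene, all libraries had 1 common median ratio, so the deposited FPKM already carry a scaling between libraries. The deposited log2 fold changes and adjusted p-values of the authors' own DESeq2 1.44.0 comparison were not used.

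The values were transformed to log2(FPKM + 0.1) and fitted in R 4.3.3 with limma 3.58.1 (lmFit, eBayes with an intensity trend, 2-sided). All 5 libraries entered 1 fit without covariates. Genes entered if their mean FPKM reached 0.5, and p-values were adjusted by Benjamini-Hochberg over all of them. The fit was tested on simulated data. Thresholds followed the study's methods. The alternatives were other pseudocounts and minima, rescaling to TPM or by the median of ratios, a robust eBayes, eBayes lacking the trend, a block for replicate number, each library left out, and other thresholds for the calls.

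Fragments per library are not in the table. For 1505 single-transcript genes over 1500 bases, FPKM times length less 330 bases came in steps, and 98.8% to 99.4% of values under 10 fragments lay within 0.1 of a whole number. Of the gene IDs, 16996 were in GENCODE M21. Other steps used pandas 2.3.3 (Python 3.11.15).

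The members and lists were chosen with earlier results of these data known. The genes named are the members, Nrip1, and from each list the called genes, those with the largest and smallest change and the most abundant, of which some from lists of other cell types are given by counts only, together with the 5 genes of nearest profile. Some genes that this rule names are not reported here. C1q ratios and other genes named were chosen after their values were seen.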

Additional observations from a re-analysis of the deposited data

How the results depend on the processing

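No member was called under any alternative, and the smallest adjusted p of a member was 0.243 (limma). The 17 values whose sign turned belong to 6 members. They count the block for replicate number and the fit without WT control replicate 3 separately, although both gave the same log2 fold changes. After rescaling to TPM, which moved the median of all genes to -0.29, C1qb was -0.17, Csf1r -0.23 and Lyz2 -0.26, and the members' median was -0.30, or -0.01 relative to all genes. With the replicate number as a block, C1qc was 0.24, Cd163 0.017 and Cd68 0.26, and 18 genes were called higher and 4 lower. The replicate numbers are not stated to mark a shared animal or batch, only 2 are shared, and deviations of same-numbered libraries correlated at 0.065 and 0.095 across genes. With each library left out in turn, the values ranged from -0.18 to 0.43 for C1qb (-0.11 without skmNrip1-/- replicate 1), -0.33 to 0.40 for Csf1r, -0.16 to 0.24 for Lyz2 (-0.14 without WT control replicate 1), -0.46 to 0.34 for C1qc (0.24 without WT control replicate 3), -0.80 to 0.20 for Cd163 (0.017 without WT control replicate 3) and -0.40 to 0.27 for Cd68 (0.26 without WT control replicate 3). The members' median then ranged from -0.31 to 0.24, and 6 to 55 genes were called higher and 3 to 16 lower, against 45 and 10 with all libraries. Where 1 library was left in a group, it was assumed to vary like the other group. Rescaling to TPM gave 30 genes higher and 63 lower, eBayes without the trend 22 and 3, and an unadjusted p 786 and 641. The other 95 values of members kept their direction, and the cause of the changes was not tested. Many of the 95 could not turn, since other minima and other eBayes settings do not alter a log2 fold change. Rescaling by the median of ratios hardly altered it, because all libraries shared that ratio.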
